A study of Homo sapiens with 6 samples.

Results

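Untreated A549 and untreated BEAS-2B cells were compared by their mature miRNAs. The members were the 2 control libraries, out of 6 libraries in the series, and each library listed counts for 2588 mature miRNAs. A549 cells derive from a human lung adenocarcinoma, whereas BEAS-2B cells are bronchial epithelial cells that were immortalised with viral genes. Per the labels, both lines were wild type, were grown in RPMI1640 medium with serum, and received no TGF-β1, the growth factor whose effect on these epithelial lines the study examined. The 4 other libraries came from the same lines after TGF-β1 for 48 h, at 1 or 5 ng/mL. They took part in the scaling, which was computed over all 6 libraries, and are otherwise used below as values set beside those of the controls. Each group had 1 library. There was therefore no replicate check and no test, a difference between the libraries could come from the line or from the single culture, and the bracketed 95% intervals cover counting error only.

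MiRNAs are short RNAs that are cut from a hairpin precursor and guide silencing proteins to mRNAs. Pairing is led by the seed, bases 2 to 8 from the 5′ end, so that miRNAs with the same seed share many predicted targets. Many miRNA genes lie in clusters that are transcribed together, and others lie inside the introns of protein-coding genes. Their levels are known to differ strongly between tissues of origin, which makes a miRNA profile a fingerprint of a cell line.

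The first set of sequences is a selection of miRNAs whose levels were far apart between the lines, those with more reads in A549 cells first. Capitals mark the seed, and the sequences are those of RefSeq (GRCh38.p14). MiR-10b-5p is left out because its name had no match there.
miR-192-5p: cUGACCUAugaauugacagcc
miR-215-5p: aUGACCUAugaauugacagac
miR-194-5p: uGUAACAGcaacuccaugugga
miR-9-5p: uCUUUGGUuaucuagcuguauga
miR-615-3p: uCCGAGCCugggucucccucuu
miR-1299: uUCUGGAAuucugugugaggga
miR-183-5p: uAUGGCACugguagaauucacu
miR-182-5p: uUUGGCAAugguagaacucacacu
miR-155-5p: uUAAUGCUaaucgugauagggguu
miR-146a-5p: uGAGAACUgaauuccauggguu
miR-146b-5p: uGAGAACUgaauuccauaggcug
miR-16-5p: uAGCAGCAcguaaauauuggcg
miR-15b-5p: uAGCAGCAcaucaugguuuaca
MiR-192-5p and miR-215-5p share a seed and lie on different chromosomes, as do miR-146a-5p and miR-146b-5p. Counting from 1 at the 5′ end, miR-192-5p and miR-215-5p differed by 2 substitutions, C1A and C20A.

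The second set holds members of families that share a seed but had opposite differences between the lines.
let-7i-5p: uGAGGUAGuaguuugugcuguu
let-7a-5p: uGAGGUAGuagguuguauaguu
let-7b-5p: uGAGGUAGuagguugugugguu
let-7d-5p: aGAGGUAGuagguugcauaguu
miR-148a-3p: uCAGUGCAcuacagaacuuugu
miR-148b-3p: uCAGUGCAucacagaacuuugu
miR-152-3p: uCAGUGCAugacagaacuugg
miR-99b-5p: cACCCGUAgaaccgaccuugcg
miR-99a-5p: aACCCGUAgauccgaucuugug
miR-100-5p: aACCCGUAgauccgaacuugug
miR-27b-3p: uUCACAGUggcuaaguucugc
miR-27a-3p: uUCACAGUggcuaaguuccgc
miR-23b-3p: aUCACAUUgccagggauuaccac
miR-23a-3p: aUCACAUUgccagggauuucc
MiR-27b-3p and miR-27a-3p differed only by U19C, and miR-99a-5p and miR-100-5p only by U16A, so the assignment of reads in those pairs rested on 1 base.

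The A549 control held 789685 counts over 902 miRNAs, and the BEAS-2B control held 735436 counts over 1031 miRNAs. Where a pair of counts follows without a line named, A549 comes first. Counts were scaled with TMM (trimmed mean of M-values, which matches the bulk of miRNAs between libraries) over all 6 libraries, and ND is log2(normalised count + 1). A log2 ratio is the ND in A549 cells minus that in BEAS-2B cells. MiR-21-5p took 53.2% (53.0 to 53.3) of the A549 control and 35.4% (35.3 to 35.5) of the BEAS-2B control. In the 4 treated libraries its share lay between 47.6% and 57.2%, so the BEAS-2B control stood apart from the other 5 libraries, and its TMM factor of 1.32 was also the highest. No second control of BEAS-2B cells was at hand to set against it. For that reason the ratio between the lines at each TGF-β1 dose is given beside some of the main values, but not beside all. Several marker lists of other cell types were near 0 in both lines. The blood cell markers summed to 27 and 58 counts, the mesenchymal miR-199 and miR-214 group to 6 and 19, the striated muscle markers to 13 and 5, and the hepatocyte marker miR-122 to 1 and 14. Other lists were not. The smooth muscle and fibroblast cluster of miR-143 and miR-145 summed to 154 and 7 counts, the neural markers to 2118 and 1599, and the endothelial marker miR-126, both arms together, to 1014 and 399. The pluripotent cluster from miR-371a to miR-373 had no count in either line, which allows up to 3 counts in each.

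A total of 135 miRNAs reached an ND of at least 8 in at least 1 control, which corresponds to a normalised count of 255. Of these, 93 (68.9%) differed by at least 1.4-fold, 55 (40.7%) with the higher level in A549 cells and 38 (28.1%) with the higher level in BEAS-2B cells. The fold and ND cut-offs are those of the study, which applied them to TGF-β1 treatment within each line. How its ND was normalised is not stated, so the ND used here may differ from it. A miRNA that met both cut-offs is said below to pass. At least 2-fold was reached by 36 and 19 miRNAs, respectively, at least 4-fold by 13 and 7, and at least 16-fold by 6 and 2. The counting interval of 83 of the 93 lay wholly beyond 1.4-fold. Scaling changed the split more than the count. With TMM over the 2 controls alone 94 passed, 51 in favour of A549 and 43 in favour of BEAS-2B. With total-count scaling 103 passed, 34 in favour of A549 and 69 in favour of BEAS-2B, without scaling 37 and 64, and with quantile normalisation 46 and 48. Under all 7 scalings, 71 of the 93 kept 1.4-fold with 1 sign, 35 of them in favour of A549 and 36 in favour of BEAS-2B. The reads were also spread differently, since 90% of the reads came from 31 miRNAs in A549 and from 42 in BEAS-2B. Across the 135 miRNAs, Pearson's r between the ND values of the lines was 0.636 and Spearman's rho was 0.644. These are descriptions, because miRNAs of 1 library are not independent.

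**Figure D1:**
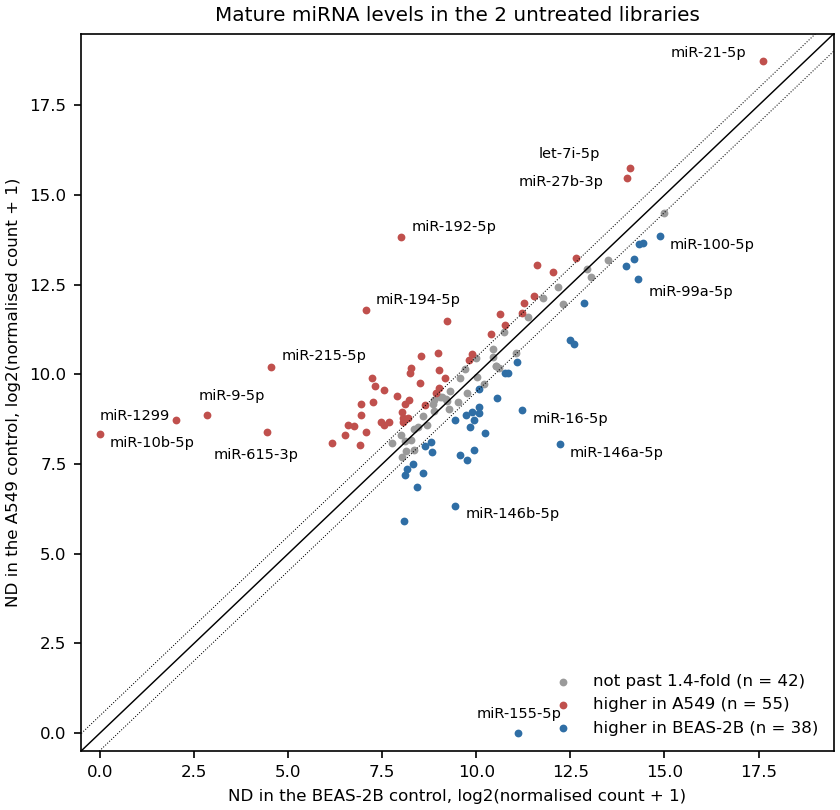
Each point is 1 of the 135 miRNAs that reached an ND of 8 in a control library, with ND in the BEAS-2B control on the x axis and ND in the A549 control on the y axis. The solid line marks equal levels and the dotted lines a 1.4-fold difference. The 55 red points are higher in A549 and the 38 blue points in BEAS-2B, with miR-1299 and miR-155-5p on the axes because 1 line had no count.

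Of the 6 passing miRNAs furthest apart in favour of A549 cells, the 3 with the most reads there were those of the miR-192, miR-194 and miR-215 group, which is known from liver and intestinal epithelium. MiR-192-5p had 13886 and 331 counts, a 56.7-fold difference (log2 5.82, 5.67 to 5.99). It was the 6th most abundant miRNA of the A549 control and number 112 in the BEAS-2B control. MiR-215-5p had 1142 and 29 counts (5.67, 5.21 to 6.32), and miR-194-5p had 3384 and 172 (4.72, 4.51 to 4.96). Over the 4 members with a mean normalised count of at least 10, 1 of which reached it through A549 cells alone, the median log2 ratio was 5.20, and it was at least 4.67 under every scaling. The group is made by 2 loci, and positions here and below are those of the hairpin on GRCh38. MiR-192 lies at chr11:64891137-64891246 on the minus strand, in an exon of the lincRNA MIR194-2HG, and miR-215 lies at chr1:220117853-220117962 on the minus strand, beside 1 of the 2 copies of miR-194. The ratio of miR-192-5p to miR-215-5p, which needs no scaling, was 12.2 in A549 cells and 11.4 in BEAS-2B, and the log2 ratio of these ratios was 0.09 (-0.46 to 0.65). The ratio of miR-192-5p to miR-194-5p differed more, at 4.10 in A549 cells and 1.92 in BEAS-2B (log2 ratio of the ratios 1.09, 0.82 to 1.36). With TGF-β1 in both lines, the log2 ratio of miR-192-5p was 5.08 with 1 ng/mL and 4.99 with 5 ng/mL.

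The miRNAs embedded in the HOX clusters, which hold the genes for body-axis transcription factors, were also higher in A549 cells. MiR-10b-5p, of the HOXD cluster, had 407 and 4 counts (log2 6.70, 5.74 to 8.99), and in the treated libraries it had 374 and 2 counts at 1 ng/mL and 277 and 3 at 5 ng/mL. MiR-615-3p, at chr12:54033950-54034045 in an intron of HOXC5, had 320 and 27 counts (3.94, 3.43 to 4.63). MiR-10a-5p, at chr17:48579838-48579947 in the HOXB cluster, was abundant in both lines, with 8088 and 4034 counts (1.44, 1.38 to 1.49). Its other arm, miR-10a-3p, had 573 and 196 counts (1.98, 1.75 to 2.22). Below an ND of 8, miR-196a-5p had 87 and 2 counts (5.17, 3.98 to 8.95) and miR-196b-5p, of the HOXA cluster, had 32 and 0, which is at least 14.4-fold higher in A549 cells. These 6 were the members with a mean of at least 10, and miR-10b-5p, miR-196a-5p and miR-196b-5p reached it through A549 cells alone, so that their direction and part of the median were fixed by this minimum. The median log2 ratio of the 6 was 4.52, or 3.90 with miR-196b-5p set at its bound, beside 0.21 over all 386 miRNAs with such a mean.

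A few single miRNAs had few or no reads in BEAS-2B cells. MiR-1299, at chr9:40929010-40929092 outside any annotated gene on its strand, had 308 and 0 counts, which is at least 139-fold higher in A549 cells. It had 249 and 2 counts at 1 ng/mL and 205 and 0 at 5 ng/mL. MiR-9-5p, a miRNA of the developing nervous system, had 447 and 8 counts (log2 6.03, 5.25 to 7.46), and its 3 genes make the same mature sequence, so the locus cannot be told. Its other arm had 31 and 0 counts. The neural list had 6 members with a mean of at least 10, all with a positive log2 ratio and with a median of 1.48 (1.59 and 1.31 in the treated pairs), but 3 of them, both arms of miR-9 and miR-137, reached that mean through A549 cells alone. The 2 most abundant besides miR-9-5p did not pass. MiR-128-3p had 1357 and 1311 counts (0.49, 0.38 to 0.60) and miR-218-5p had 170 and 184 (0.32, 0.01 to 0.63).

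The cluster of miR-183, miR-96 and miR-182, which is transcribed as 1 unit and is known from sensory cells and carcinomas, differed as a block. MiR-183-5p had 788 and 203 counts (log2 2.39, 2.17 to 2.62), miR-182-5p had 2743 and 773 (2.26, 2.15 to 2.38), and miR-96-5p had 555 and 158 (2.24, 1.99 to 2.51). The intervals of the 3 overlapped, and the ratios in the treated libraries lay between 2.03 and 2.58. MiR-182 and miR-96 lie at chr7:129770383-129770492 and chr7:129774692-129774769. MiR-378a-3p, from an intron of PPARGC1B, a regulator of mitochondrial metabolism, had 1106 and 395 counts (1.92, 1.75 to 2.09). MiR-378c, with the same seed, had 371 and 123 (2.02, 1.73 to 2.33). MiR-126-3p, an endothelial miRNA from an intron of EGFL7, had 1003 and 393 (1.78, 1.62 to 1.96).

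The DLK1-DIO3 cluster of chromosome 14 is an imprinted region whose many miRNAs are expressed from the maternal chromosome. In the files, 92 mature miRNAs of the cluster were listed, 71 had a count in a control and 32 had a mean normalised count of at least 10. Of the 32, whose mature sequences spread over chr14:100869075-101065661, 30 had a positive log2 ratio (29 with total-count scaling), against 214 of 386 over all miRNAs. The minimum favoured positive ratios, since 12 of the 32 were below 10 in BEAS-2B cells and entered through A549 cells alone. Of the other 20, 18 were positive, beside 181 of 353 over all miRNAs that reached 10 in BEAS-2B cells. The median of the 32 was 1.42, and it lay between 0.91 and 1.42 over the scalings. The counting interval excluded no change for 26 of the 30. Only 3 of the 32 met the ND criterion, and all 3 passed in favour of A549 cells, beside 40.7% of all 135 miRNAs. MiR-381-3p had 1398 and 477 counts (1.98, 1.84 to 2.14), miR-127-3p had 720 and 241 (2.01, 1.80 to 2.23), and miR-654-3p had 301 and 118 (1.78, 1.48 to 2.11). The largest ratio in the cluster was that of miR-495-3p, with 61 and 5 counts (3.73, 2.74 to 5.72). The exceptions were miR-539-3p, with 105 and 276 counts (-0.95, -1.30 to -0.63), and miR-544a, with 6 and 20 (-1.18, -2.91 to 0.07). With TGF-β1, 30 of the 32 were again positive at each dose, with medians of 2.33 and 2.80, and miR-539-3p and miR-544a were again negative.

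**Figure D2:**
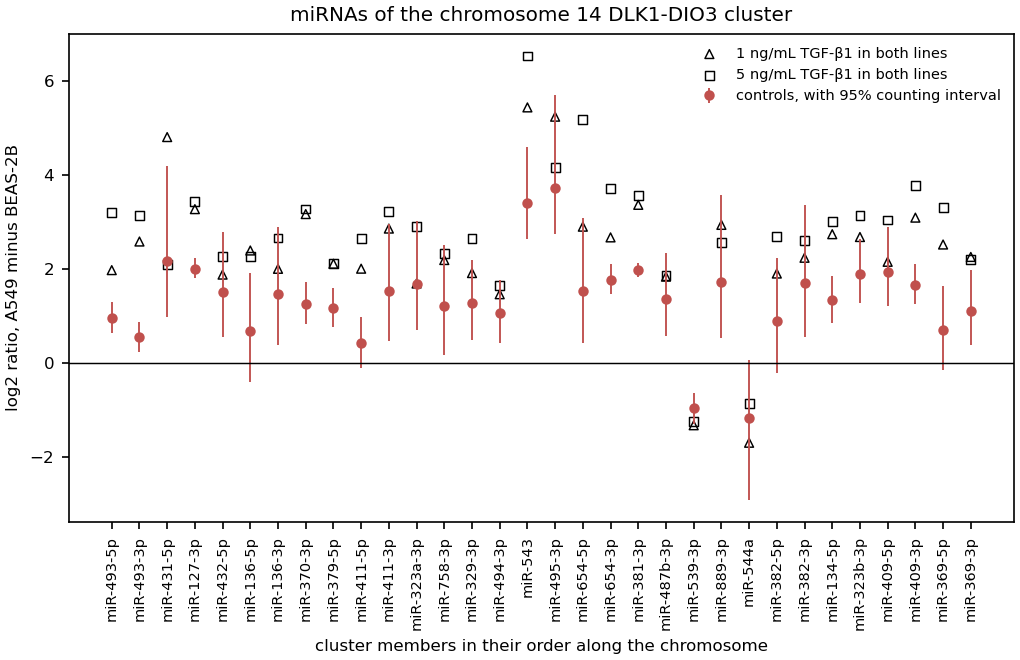
The y axis gives the log2 ratio between A549 and BEAS-2B cells for the 32 cluster members with a mean normalised count of at least 10, in chromosome order along the x axis. Red points are the controls with their 95% counting interval, triangles are the libraries with 1 ng/mL and squares those with 5 ng/mL TGF-β1; all lie above 0 except miR-539-3p and miR-544a.

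In the other direction, the passing miRNAs furthest apart were those that inflammatory signalling is known to induce, miR-155 and miR-146. MiR-155-5p had 0 and 2874 counts, which is at least 708-fold higher in BEAS-2B cells. It had 1 and 1390 counts with 1 ng/mL TGF-β1, and 2 and 1666 with 5 ng/mL. MiR-146a-5p had 255 and 6168 counts, a 17.9-fold difference (log2 -4.16, -4.35 to -3.98). It lies at chr5:160485352-160485450 in an exon of the lincRNA MIR3142HG. MiR-146b-5p, from chr10:102436512-102436584, had 77 and 897 counts (-3.09, -3.46 to -2.77). The ratio of miR-146a-5p to miR-146b-5p was 3.31 in A549 cells and 6.88 in BEAS-2B, and the log2 ratio of these ratios was -1.05 (-1.44 to -0.67), so the family member on chromosome 5 differed more. At both TGF-β1 doses, the log2 ratios were -4.55 and -4.64 for miR-146a-5p and -3.48 and -3.31 for miR-146b-5p.

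The miR-15 and miR-16 family, which restrains cyclins and BCL2, was higher in BEAS-2B cells. MiR-16-5p had 493 and 3114 counts (-2.22, -2.36 to -2.09), and miR-15b-5p had 205 and 986 (-1.83, -2.05 to -1.61). Both are made from an intron of SMC4 on chromosome 3, miR-15b at chr3:160404588-160404685, and miR-16-5p has a second gene. All 4 family members that met the ND criterion passed in this direction, beside 28.1% of all 135 miRNAs, and both arms of miR-15b are among the 4. Besides miR-16-5p and miR-15b-5p, these were miR-16-2-3p with 474 and 1229 counts (-0.94, -1.09 to -0.78) and miR-15b-3p with 264 and 580. Of the 6 members with a mean normalised count of at least 10, 1 was positive, at 0.32. MiR-210-3p, the miRNA most tied to hypoxia, had 225 and 1284 counts (-2.07, -2.29 to -1.87), and the ratio was -2.32 and -2.99 at 1 and 5 ng/mL. MiR-574-3p had 57 and 347 counts (-2.15, -2.60 to -1.76), and the other arm, miR-574-5p, had 146 and 493 (-1.31, -1.60 to -1.05). The cluster of miR-221 and miR-222, which is linked to growth, was also higher in BEAS-2B cells, with 9233 and 24337 counts of miR-221-3p (-0.96, -1.0 to -0.93) and 1004 and 2265 of miR-222-3p (-0.74, -0.85 to -0.63). MiR-130b-5p had 110 and 446 counts (-1.58, -1.90 to -1.28).

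**Figure D3:**
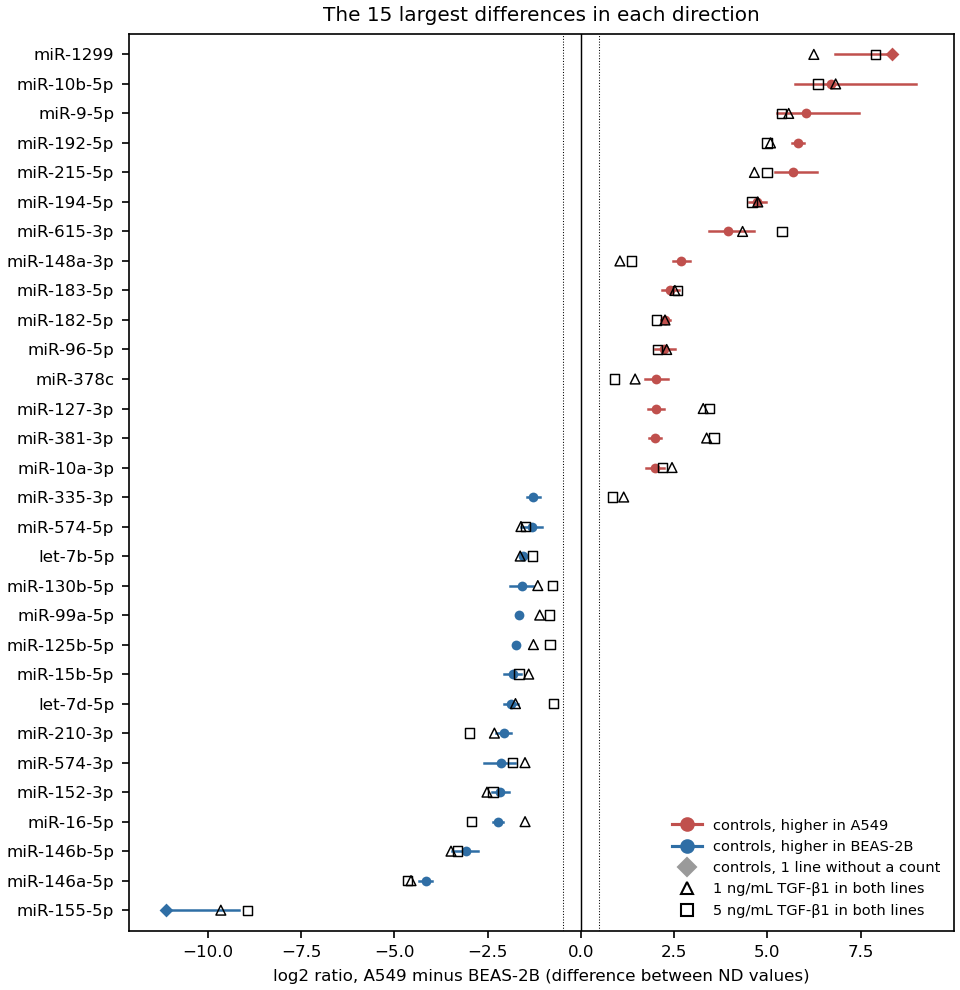
The log2 ratio between A549 and BEAS-2B cells is shown on the x axis for the 15 passing miRNAs furthest apart in each direction. Filled points with lines are the controls and their 95% counting interval, diamonds mark miRNAs with no count in 1 line, and triangles and squares are the pairs treated at 1 and 5 ng/mL. The treated values lie on the same side of 0 for each miRNA shown except miR-335-3p.

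Several families were split, so that members with the same seed passed in opposite directions. This was the case for 5 seeds. Ratios within a family do not depend on the scaling between libraries, but passing does. With total-count scaling miR-99b-5p (0.12), miR-23b-3p (0.19) and miR-92a-3p (0.08) no longer passed, and the seeds of let-7 and of miR-148 were the ones split under all 7 scalings. The seed of miR-27 was split under each of the 6 other scalings, but not under the main one. In the miR-148 and miR-152 family, miR-148a-3p had 924 and 195 counts (2.67, 2.46 to 2.91), miR-148b-3p had 1500 and 661 (1.62, 1.49 to 1.75), and miR-152-3p had 186 and 1127 (-2.16, -2.39 to -1.94). MiR-152-3p therefore held 7.13% (6.17 to 8.18) of the family's reads in A549 cells and 56.8% (54.6 to 59.0) in BEAS-2B, and miR-148a-3p exceeded it 4.97-fold in A549 cells while it exceeded miR-148a-3p 5.78-fold in BEAS-2B cells. The 3 genes lie on chromosomes 7, 12 and 17, and miR-152 sits in an intron of COPZ2 while miR-148b sits in an intron of its paralogue COPZ1.

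In the let-7 family, which is linked to differentiation, let-7i was the 1 member to pass in favour of A549 cells. Let-7i-5p had 53132 and 22659 counts (1.67, 1.64 to 1.69), and it held 60.4% (60.1 to 60.7) of the reads of 9 family members in A549 cells but 22.4% (22.2 to 22.7) in BEAS-2B cells. Let-7d-5p had 318 and 1572 counts (-1.87, -2.05 to -1.69), let-7b-5p had 1894 and 7521 (-1.55, -1.63 to -1.48), and let-7a-5p had 7991 and 21110 (-0.97, -1.0 to -0.93). Let-7c-5p, let-7f-5p and the other arm let-7a-3p also passed in favour of BEAS-2B cells. Let-7g-5p (-0.31), let-7e-5p (0.45) and miR-98-5p (0.05) did not pass. The sum over the seed differed little, with a log2 ratio of 0.24 (0.22 to 0.25), which is near the median of 0.27 over the 135 miRNAs. With total-count scaling every ratio here is lower by 0.54, so let-7i-5p stood at 1.13 and let-7a-5p at -1.50.

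MiRNAs of the let-7, miR-99 and miR-125 families are encoded side by side at several loci, and members of 3 of these loci are given together. At the chromosome 19 locus in SPACA6 (miR-99b at chr19:51692612-51692681), miR-99b-5p had 4482 and 3832 counts (0.66, 0.60 to 0.72), let-7e-5p had 2237 and 2217 (0.45, 0.36 to 0.53), and miR-125a-5p had 7505 and 10169, a log2 ratio of -0.0024 (-0.05 to 0.04). With total-count scaling let-7e-5p turned to -0.09. At the chromosome 21 locus in MIR99AHG (miR-99a at chr21:16539089-16539169), miR-99a-5p had 6168 and 26190 counts (-1.65, -1.69 to -1.61) and let-7c-5p had 618 and 1956 (-1.23, -1.36 to -1.10). At the chromosome 11 locus in MIR100HG (miR-100 at chr11:122152229-122152308), miR-100-5p had 14261 and 38938 counts (-1.01, -1.04 to -0.99), and miR-125b-5p, which has a second gene, had 1767 and 7980 (-1.74, -1.81 to -1.66). The ratio of miR-99b-5p to miR-99a-5p was 0.727 in A549 cells and 0.146 in BEAS-2B, and that of miR-125a-5p to miR-125b-5p was 4.25 and 1.27.

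The clusters of miR-23, miR-27 and miR-24 are paralogous, and the 3p arms of miR-27 and miR-23 had opposite signs in them. From the chromosome 9 cluster (miR-27b at chr9:95085445-95085541), miR-27b-3p had 44006 and 21415 counts (1.47, 1.45 to 1.50) and miR-23b-3p had 2154 and 1757 (0.73, 0.64 to 0.82). From the chromosome 19 cluster (miR-27a at chr19:13836440-13836517), miR-27a-3p had 22368 and 41887 counts (-0.47, -0.49 to -0.45), just inside 1.4-fold, and miR-23a-3p had 1002 and 2392 (-0.82, -0.93 to -0.71). Under the 6 other scalings miR-27a-3p passed, with ratios between -1.01 and -0.52. The other arm miR-27a-5p went the other way, with 306 and 331 counts (0.32, 0.09 to 0.55). That sign turned with total-count scaling (-0.22) and without scaling (-0.11). MiR-24-3p, which both clusters make, had 6502 and 10962 (-0.32, -0.36 to -0.27). Of the 10 members with a mean of at least 10, 5 were positive and 5 negative. MiR-27b-3p exceeded miR-27a-3p 1.97-fold in A549 cells and was exceeded by it 1.96-fold in BEAS-2B cells. The seed sums had log2 ratios of 0.50 for miR-27 and 0.04 for miR-23. In the treated libraries miR-27b-3p had log2 ratios of 0.97 and 0.65, and miR-27a-3p had 0.08 and 0.09.

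**Figure D4:**
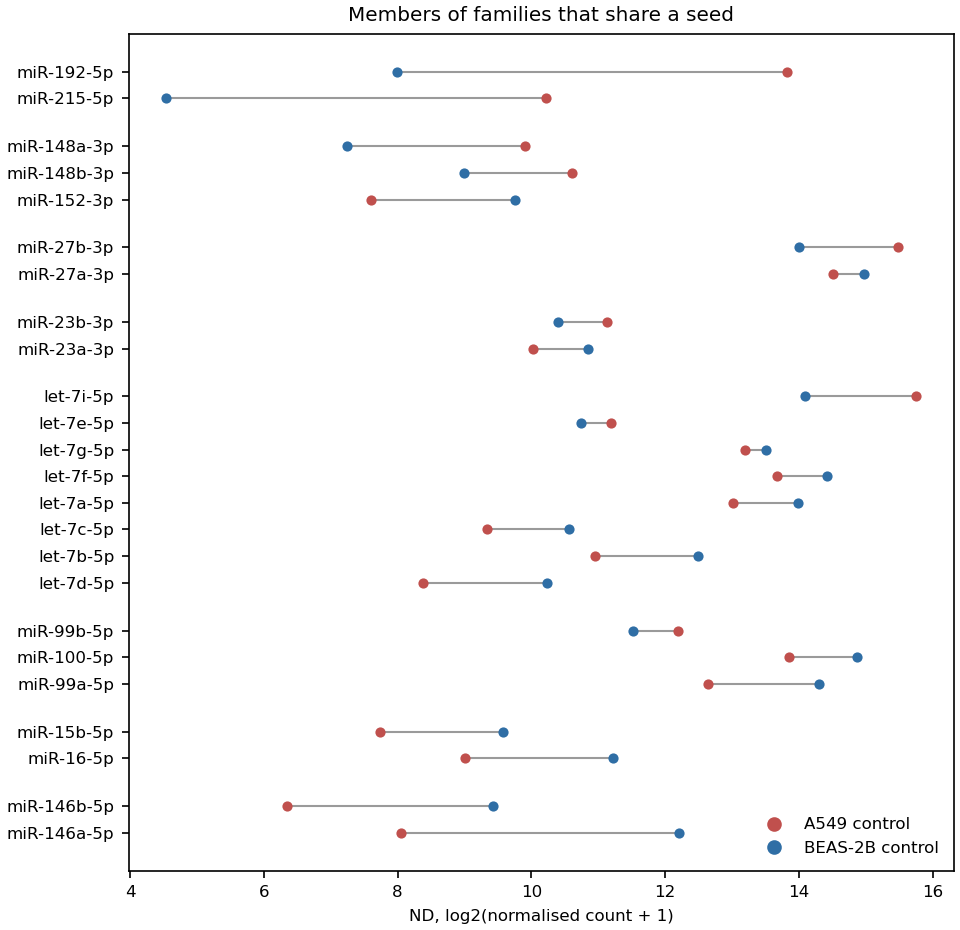
The x axis gives ND in the A549 control (red) and the BEAS-2B control (blue) for members of 8 families that share a seed, 1 miRNA a line. The colours keep their order in the families of miR-192, miR-15b and miR-146a, and they change order within those of miR-148a, miR-27, miR-23, let-7 and miR-99a.

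The epithelial miR-200 family, which keeps the EMT factors ZEB1 and ZEB2 low, was scarce in both lines. All its members together had 228 and 497 counts. MiR-200b-3p, the only member to meet the ND criterion, had 139 and 356 counts (-0.92, -1.21 to -0.63), whereas miR-200c-3p, from another locus, had 36 and 11 (2.02, 1.14 to 3.27). In the treated pairs the log2 ratio of miR-200b-3p was -0.01 and -0.10. MiR-205-5p, a marker of basal airway epithelium, had 0 and 1 counts. MiR-34a-5p, a p53 target, had 102 and 23 counts (2.52, 1.92 to 3.31), below an ND of 8, and its ratio was 0.95 at 1 ng/mL and -0.04 for 5 ng/mL.

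Among the families known for growth and for matrix genes, the differences were smaller. The miR-17-92 cluster had a median log2 ratio of 0.30 over 9 members, and its lowest value over the scalings was -0.23. In the treated pairs the median was 0.13 at 1 ng/mL and -0.76 at 5 ng/mL. Of its 3 members that met the ND criterion, only miR-92a-3p passed, with 2552 and 2255 counts (0.61, 0.53 to 0.70). In the miR-106b-25 cluster 0 of 4 members that met the ND criterion passed, beside 68.9% of all 135 miRNAs. MiR-29a-3p, which targets collagen mRNAs, had 5289 and 5946 counts (0.27, 0.21 to 0.32), and its sign turned with total-count scaling (-0.27) and without scaling (-0.17). In the miR-30 family, which is rich in epithelia, 3 of 7 passed in favour of A549 cells, which is near the 40.7% of all 135. They were miR-30d-5p with 7160 and 5511 counts (0.81, 0.76 to 0.86), miR-30a-5p with 9385 and 8381 (0.60, 0.56 to 0.64) and miR-30c-5p. With total-count scaling none of the 3 passed, at 0.27, 0.06 and -0.05, and 2 members passed in favour of BEAS-2B cells. The median over the 11 members with a mean of at least 10 was 0.44 between the controls, and 0.14 and -0.18 at 1 and 5 ng/mL. MiR-21-5p itself had 419780 and 260388 counts (1.12, 1.12 to 1.13). That ratio was 0.59 with total-count scaling and 0 with quantile normalisation, which sets the most abundant miRNA equal by construction, and it was 0.34 and -0.29 in the treated libraries.

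**Figure D5:**
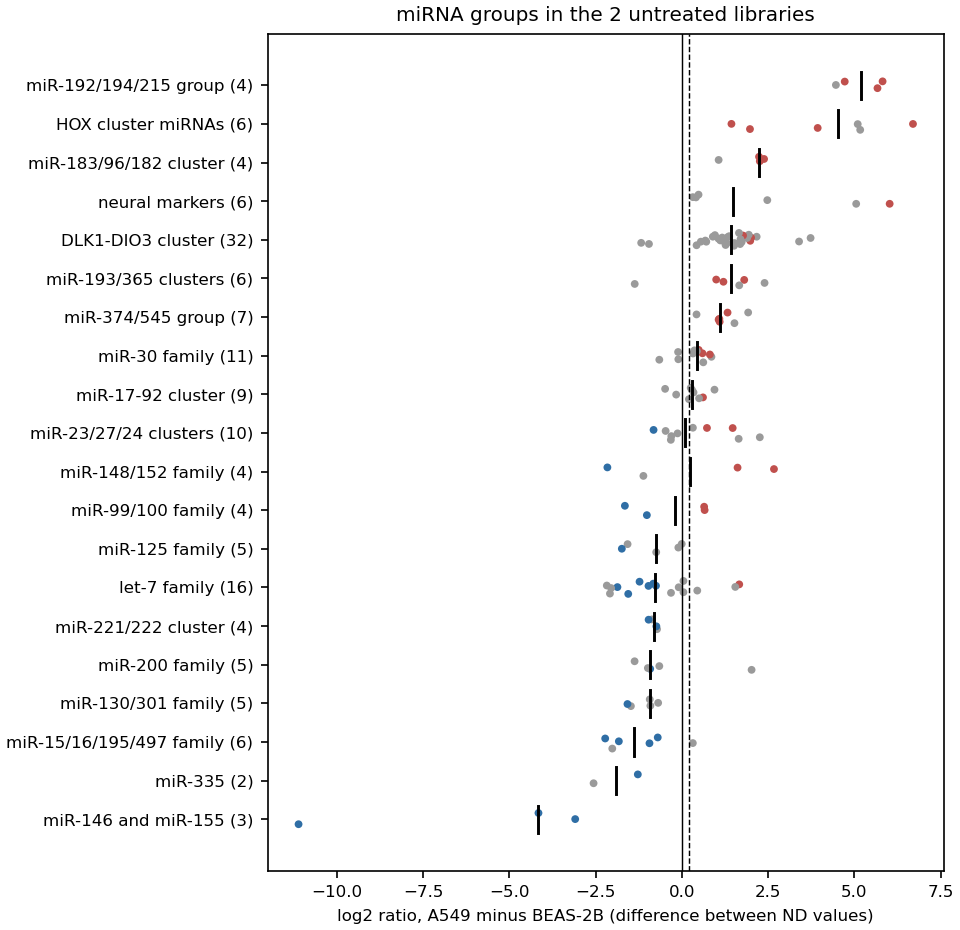
Points are miRNAs with a mean normalised count of at least 10 in 20 of the groups examined, with the log2 ratio between A549 and BEAS-2B cells on the x axis, the number of members in brackets and the median as a bar. Red and blue points passed in favour of A549 and BEAS-2B cells, grey points did not pass, and the dashed line is the median of 0.21 over 386 miRNAs. The group of miR-192 (5.20) and that of miR-146 and miR-155 (-4.16) lie at the ends.

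Other miRNAs that passed belong to smaller groups. MiR-26a-5p, among the 10 most abundant in each line, had 12178 and 26469 counts (-0.68, -0.72 to -0.65). Both arms of miR-22 were higher in BEAS-2B cells, with 1255 and 2821 counts of miR-22-3p (-0.73, -0.83 to -0.64) and 464 and 1395 of miR-22-5p (-1.15, -1.31 to -1.0). MiR-181a-5p, known from lymphocytes, had 737 and 1397 (-0.49, -0.62 to -0.36).

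Higher in A549 cells were miR-193b-3p, with 360 and 138 counts (1.81, 1.53 to 2.11), and a pair of the miR-424 and miR-503 cluster of the X chromosome, miR-450b-5p with 642 and 305 (1.51, 1.31 to 1.71) and miR-450a-5p with 837 and 470 (1.27, 1.10 to 1.43). MiR-374a-5p had 1061 and 670 counts (1.10, 0.96 to 1.24), and miR-224-5p had 3185 and 2076 (1.05, 0.97 to 1.13). All 5 kept 1.4-fold with total-count scaling, whereas miR-31-5p, with 1287 and 1172 counts (0.57, 0.46 to 0.69), stood at 0.03. MiR-1246 and miR-99b-3p, at 0.73 and 0.65, did not keep it either. The median of the miR-374 and miR-545 group was 1.10 between the controls, and 0.0020 and -0.66 at 1 and 5 ng/mL. That of the miR-424 and miR-503 cluster was 0.48, and 0.13 and -0.22. The miR-193 and miR-365 clusters had 1.44, and 1.46 and 0.58, and the miR-224 and miR-452 cluster had 0.34, and 1.08 and -0.0062.

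Just below an ND of 8, miR-1271-5p had 1 and 291 counts (-6.78, -13.1 to -5.26), with 0 and 202 counts at 1 ng/mL and 2 and 197 at 5 ng/mL. It was picked with its values known, and it has the seed of miR-96-5p, which was higher in A549 cells.

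In 102 hairpins with at least 100 counts in each line, the share of the 5p arm differed by less than 5 percentage points in 88 and by less than 1 in 67. Many of these hairpins had nearly all reads on 1 arm in both lines, such as let-7i with a 5p share of 99.9% in each. Their difference is small for that reason, so these counts do not show how far the choice of arm was shared. The hairpins furthest apart were miR-140, with 37.7% (33.1 to 42.5) of its reads from the 5p arm in A549 cells and 57.2% (53.3 to 61.0) in BEAS-2B, and miR-15b, with 43.7% (39.2 to 48.3) and 63.0% (60.5 to 65.4). The majority arm changed in both, and in 4 hairpins in all. In the others the intervals of the lines overlapped. These were miR-330, with 57.5% (49.8 to 64.9) and 48.7% (40.6 to 56.8), and miR-493, with 53.4% (48.0 to 58.7) and 46.3% (40.3 to 52.3). For miR-335, in an intron of MEST, the 5p share was 9.82% (7.08 to 13.2) against 21.3% (19.2 to 23.4). For miR-574 it was 71.9% (65.2 to 78.0) against 58.7% (55.3 to 62.0), and for miR-28 it was 27.6% (24.5 to 30.9) against 38.4% (35.9 to 40.8). MiR-335-3p had 358 and 1174 counts (-1.28, -1.45 to -1.11) and miR-335-5p had 39 and 317 (-2.56, -3.11 to -2.10).

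The passing miRNAs of the 2 directions had the same median GC content of 45.5%, over the 51 and 36 with a RefSeq sequence, beside 48.9% over 38 that met the ND criterion and did not pass. A 5′ U began 33 of the 51 and 18 of the 36, respectively.

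The treated libraries served as a second view of the line difference, with other libraries of the same lines. With 1 ng/mL 92 of 143 miRNAs passed between the lines (64.3%), and with 5 ng/mL 99 of 146 did (67.8%). Of the 93 that passed between the controls, 87 kept their sign with 1 ng/mL and 75 with 5 ng/mL. Fewer passed again with the same sign, 60 and 55, respectively, and 2 and 6 passed with the opposite sign. All 20 that were at least 4-fold apart between the controls kept their sign at both doses, and 17 and 18 of them passed again. In all 3 pairs, 50 passed with 1 sign, 31 in favour of A549 and 19 in favour of BEAS-2B. TGF-β1 was present in these pairs, so its effect and the variation between cultures cannot be told apart in any miRNA that changed sign.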

How the data were processed

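Per the labels, RNA was taken with Trizol, libraries were made with the NEBNext Multiplex Small RNA Library Prep kit, and the submitters' processing notes name Bowtie2 and bedtools. The genome build, annotation release, versions and handling of strand are not given in the sources used here. The values the authors deposited were raw, whole-number counts of reads for each mature miRNA, and molecular identifiers were not mentioned.

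Counts were scaled with TMM (edgeR 4.0.16, R 4.3.3) over 6 libraries and expressed relative to the mean effective size of 749498. A miRNA passed with a greater ND of at least 8 and a fold of at least 1.4, where ND is log2(normalised count + 1) with a pseudocount of 1. Intervals of ratios were exact Clopper-Pearson intervals of the binomial share (95%), scaled by library size, intervals of the ratio of 2 ratios were log-normal, and a count of 0 was bounded by 3 counts. No p-value was computed. Lists were described over members with a mean of 10 normalised counts or more. Hairpins and sequences came from RefSeq (GRCh38.p14), where 2281 names matched, and containing genes from GENCODE release 29. Ratios and intervals were computed in Python 3.11.15 (scipy 1.17.1, numpy 2.4.6, pandas 2.3.3), and the procedure was tested on simulated counts.

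The miRNAs named were taken from the 10 most abundant of each control, the 15 passing miRNAs furthest apart in each direction with their other arms, passing miRNAs with at most 3 counts in 1 line, passing members of 44 lists or else their most abundant member, and the 5 hairpins whose arms differed most. Some other arms and some members of lists in which none passed are not printed. Others were chosen after their values were seen. Members and lists were chosen with earlier results of these data known. Alternatives were 6 other scalings (with DESeq2 1.42.0 and limma 3.58.1), other ND, fold and pseudocount settings, and merged partners.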

Additional observations from a re-analysis of the deposited data

Results flagged for a closer look

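A total of 5 of the 93 miRNAs had the opposite sign in both pairs treated with TGF-β1, and these differences were not tested. MiR-335-3p had a log2 ratio of -1.28 between the controls, and 1.15 at 1 ng/mL and 0.85 at 5 ng/mL. MiR-21-3p, the minor arm of miR-21, had 1.91 between the controls, and -0.39 and -1.03 with TGF-β1. MiR-4521 had 0.92, and -0.67 and -0.95, and miR-339-5p had 0.61, and -0.31 and -0.55. MiR-374b-5p had 1.09, and -0.05 and -0.72. The treatment, the single cultures and the BEAS-2B control, with its low share of miR-21-5p, cannot be told apart here.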

How the results depend on the processing

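No paired analysis was possible because each group had 1 library, and for the same reason no replicate could be left out. The count of passing miRNAs (93, 55 in favour of A549 and 38 in favour of BEAS-2B) stayed between 91 and 103 under the 6 other scalings, both pseudocounts and merging of partners that overlap on opposite strands or share a sequence. The split moved with scaling. Total-count scaling gave 34 in favour of A549 and 69 in favour of BEAS-2B, and unscaled counts gave 64 higher in BEAS-2B cells. An ND of at least 9 gave 36 higher in A549 cells. The ND criterion on both libraries gave 58 of 95 in all, 32 of them higher in A549 cells. Of the 135, 25 met the criterion in A549 cells only and 15 in BEAS-2B cells only. A fold of at least 2 gave 55, 36 and 19. Without an ND criterion, 920 of 1202 miRNAs with a count passed, 409 in favour of A549 and 511 in favour of BEAS-2B. Scaling moved the median of the 135 miRNAs by -0.54 (total count), -0.44 (none) and -0.21 (quantile), and by less than 0.1 otherwise. MiR-30c-5p turned to -0.049 with total-count scaling, and the median of the miR-34 and miR-449 family turned from 1.42 to -0.018 with every member that had a count. Of 880 values of 110 named miRNAs, 626 stayed within the counting interval. Of 377 list medians, 296 stayed between the median lower and the median upper interval bound of the members, which is not an interval of the list median. Reads of such partners could not be told apart with certainty, and merging them left 129 miRNAs that met the ND criterion in place of 135. Among the partners were miR-374b-5p and miR-374c-3p, miR-7-5p and miR-3529-3p, and miR-365a-3p and miR-365b-3p, but these are not all.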

Other observations

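MiR-143-3p, a smooth muscle and fibroblast miRNA, had 148 counts in A549 and 7 in BEAS-2B cells (log2 4.60, 3.76 to 6.18), below an ND of 8, and its ratio was 4.52 and 3.69 in the treated pairs. MiR-375, an endocrine miRNA, had 16 and 1 counts (3.32, 1.75 to 9.83).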
